A study of Bos taurus with 15 samples.

Results

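The response of bovine granulosa cells (GC) to additional sodium chloride was described by setting the 5 arrays of GC cultured with 30 mM NaCl against the 5 arrays of untreated GC, which are 10 of the 15 arrays of the series. The other 5 arrays are of GC with 30 mM sodium L-lactate. NaCl was the vehicle control of that treatment and raised the sodium of the medium by the same amount. The GC came from follicles below 6 mm of slaughtered cattle, were pooled, frozen and thawed, and grew on coated wells in medium with albumin in place of serum. All 3 groups received FSH (20 ng/ml), IGF-1 (50 ng/ml) and androstenedione (2 µM) until day 8, so that every array shows GC under gonadotropin stimulation. The untreated GC lacked only the 30 mM salt. RNA was measured on the Bovine Gene 1.0 ST Array, and each value is the log2 signal of a transcript cluster, the probes that target one transcribed locus. Osmolality and the sodium concentration of the medium were not analysed here.

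Sodium chloride added to an isotonic medium raises its osmolality. Water leaves the cells, which shrink and then take up ions and small organic solutes, the osmolytes, to regain their volume. The transcription factor NFAT5 is known to switch on the genes for this uptake, among them the transporters of taurine (SLC6A6), myo-inositol (SLC5A3) and betaine (SLC6A12) and the sorbitol-producing aldose reductase (AKR1B1). GC surround the oocyte in the follicle, convert androstenedione to estradiol with the aromatase CYP19A1 under FSH, and after the preovulatory surge of LH switch to a program with the hyaluronan-rich matrix genes HAS2, PTX3 and TNFAIP6.

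Marker genes fitted the label in the main, with exceptions given below. INHA (inhibin alpha) read 10.63 ± 0.06 with NaCl and 10.49 ± 0.03 in untreated GC (SD, n = 5 each), CYP19A1 read 8.97 ± 0.04 and 8.51 ± 0.08, and FOXL2, the transcription factor that keeps the granulosa fate, 7.75 ± 0.14 and 7.55 ± 0.10. The oocyte genes GDF9, BMP15 and ZP3, the endothelial genes PECAM1 and CDH5, the leukocyte gene PTPRC and the theca gene CYP17A1 had group means between 2.67 and 3.92. These lie below 5.11, the 90th percentile of 35 genes of other organs, and signals below it are called low in what follows, since detection calls were not analysed here. Stromal genes such as LUM (11.64 with NaCl and 11.76 in untreated GC) and DCN (8.86 and 9.20) were measured in both groups as well. INSL3, a theca marker, read 7.06 with NaCl and 7.70 in untreated GC, which is not low. The granulosa marker HSD17B1 was low, at 3.88 with NaCl and 4.09 in untreated GC. The array medians ranged from 4.53 to 4.60, and correlations between arrays were 0.995 to 0.997 within a group and 0.993 to 0.995 between the groups. In a principal component analysis of the 10 arrays, the first component held 29.4% of the variance. The NaCl arrays scored 10.9 to 18.6 on it and the untreated arrays -18.4 to -12.3, a difference of 28.6 between the means (exact two-sided permutation test, p = 0.00794, which no comparison of 5 with 5 arrays can undercut). On the second component, with 11.2% of the variance, the groups were mixed (exact permutation test, p = 0.817).

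Between NaCl treated and untreated GC, 307 of 26773 transcript clusters (1.15%) were differentially expressed, taken here as an adjusted p under 0.05 (limma, Benjamini-Hochberg over all clusters) and a fold change above 1.5. The paper counts fewer transcript clusters on this array, and what the further ones target is not known here. A block of 1776 clusters without annotation is included in all counts and described below. With NaCl, 108 clusters were higher (0.403% of all) and 199 were lower (0.743%), and the 248 clusters with a single gene symbol stood for 70 genes that were higher and 175 that were lower. Of the higher clusters 18 exceeded a 2-fold change and of the lower clusters 52, and only 7 clusters exceeded 4-fold, 2 of them higher and 5 lower. Without the fold threshold, 3195 clusters (11.9%) had an adjusted p under 0.05, of which 1640 (6.13%) were higher and 1555 (5.81%) lower, and the median difference over all clusters was 0.0016. In 284 of the 307 clusters, the 5 NaCl arrays did not overlap with the 5 untreated arrays, which was the case for 11.0% of all clusters. In what follows, differences are log2 values of NaCl minus untreated, "rose" and "fell" stand for clusters past both thresholds, and n is 5 arrays per group. Of the 123 named genes past both thresholds, 41 had a low mean in at least 1 group, among them PAG11, NTS, NRG1, ADCY2, LOC767968, H19, GPR34, EGLN3, EMB and SLC16A6. Low in both groups were AGTR2, AHSG, AKAP4, ANGPT1, COL8A1, EMB, HAS2, ITGA11, NR4A3, PMAIP1, PRKG2, PRRG4, SLC13A5, SLC30A2 and TGFB3. For a gene with a low mean in any group the difference is one of normalised signals, whose size as RNA is not known. No linear fold change is given for it. RNA of whole cultures was measured, so that a lower signal from fewer cells of a kind and from less RNA per cell cannot be told apart.

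**Figure D1:**
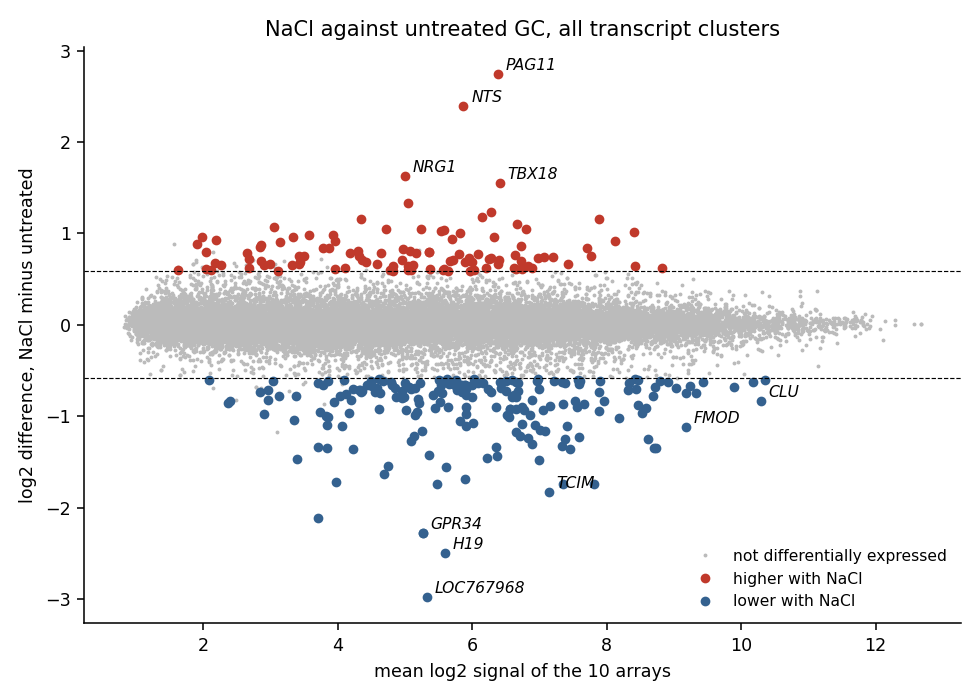
Each point is a transcript cluster, with the mean log2 signal of the 10 arrays on the horizontal axis and the log2 difference of NaCl minus untreated on the vertical axis. The 108 higher clusters (red) and the 199 lower ones (blue) lie beyond the dashed lines of a 1.5-fold change, PAG11 and NTS at the top and LOC767968 and H19 at the bottom.

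The largest measured increase was that of PAG11, which codes for a pregnancy-associated glycoprotein, a family of aspartic proteinase-like proteins known from the ruminant trophoblast. Its cluster (12832821) read 7.30, 7.54, 8.08, 7.49 and 8.36 in the 5 NaCl arrays and 4.90, 5.23, 5.10, 4.52 and 5.29 in the 5 untreated arrays, a difference of 2.75 (SE 0.22, adjusted p = 8.7e-07). The untreated mean of 5.01 was low. The lowest NaCl array stood well above the highest untreated array. Of 19 measured genes of the family, chosen after their values were seen, PAG11 was the only one to rise. The other 18 differed by -0.15 to 0.16. Near-identical members of such a family can share probes, so the assignment to PAG11 rests on the array's annotation.

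NTS, the precursor of the neuropeptide neurotensin, followed with 6.76, 6.94, 7.28, 6.92 and 7.43 in NaCl and 4.78, 4.57, 4.24, 4.88 and 4.88 in untreated GC. This was a rise of 2.40 (SE 0.14, adjusted p = 5.1e-08), and every untreated value was low. NRG1, a ligand of the ERBB receptors, read 5.69, 5.85, 5.88, 5.69 and 5.97 against 4.19, 4.09, 4.07, 4.21 and 4.38 and rose by 1.62 (SE 0.10, adjusted p = 1.0e-07). It is known from mice as one of the ligands by which the LH signal spreads in the follicle, and its groups lay farther apart than either was wide.

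The transcription factor gene TBX18, known from the development of mesenchyme and coelomic lining, had 6.98, 7.13, 7.44, 7.18 and 7.19 with NaCl and 5.66, 5.76, 5.52, 5.38 and 5.83 without and rose 2.94-fold (SE 0.09 on the log2 scale, adjusted p = 6.4e-08). The remaining genes of the 15 largest increases rose by 1.03 to 1.34. ADCY2, an adenylyl cyclase that makes cAMP, rose by 1.34. Among 9 cyclases, looked at after their values were seen, it alone passed both thresholds, and ADCY3 differed by -0.41 (adjusted p = 3.1e-04). CEMIP, which takes part in the breakdown of hyaluronan, rose by 1.16 and SPRY1, a feedback inhibitor of receptor tyrosine kinases, by 1.04. KCNE3, an accessory subunit of potassium channels, rose by 1.05, and CA5B, the mitochondrial carbonic anhydrase, by 1.18. CMAH, which modifies sialic acid, rose by 1.23, the actin-binding TAGLN by 1.11, the rhomboid protease RHBDL2 by 1.03 and the membrane protein genes PRRG4, TMEM26 and CNTNAP4 by 1.16, 1.05 and 1.05. In none of the 15 did the groups overlap, as the rule for this selection required.

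**Figure D2:**
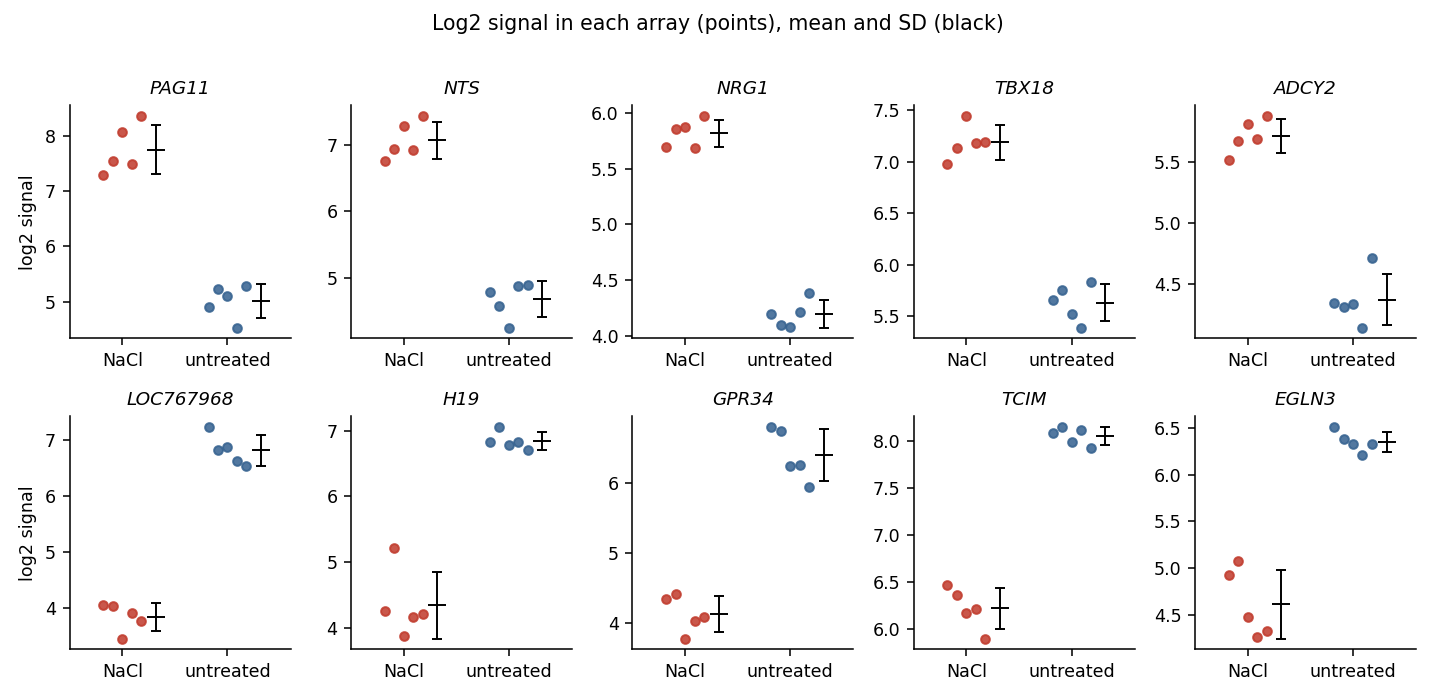
Log2 signals in the 5 NaCl arrays (red, left) and the 5 untreated arrays (blue, right) for the 5 largest increases (upper row) and the 5 largest decreases (lower row), with mean and SD in black; vertical axes do not start at 0. In H19, NaCl replicate 2 lies at 5.21 and the other NaCl arrays at 3.88 to 4.26.

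The largest measured decrease was found for LOC767968 (cluster 12910364), which RefSeq lists with the synonyms BEX1 and BEX2, names of small adaptor proteins known from neurons. It read 4.04, 4.03, 3.44, 3.90 and 3.75 with NaCl and 7.23, 6.82, 6.87, 6.61 and 6.53 in untreated GC and fell by 2.98 (SE 0.14, adjusted p = 1.2e-08). All NaCl arrays were low and all untreated arrays were not. A further locus with the synonym BEX2, LOC768028, differed by -0.17 (adjusted p = 0.052).

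H19, the long non-coding RNA from the imprinted locus next to IGF2, read 4.26, 5.21, 3.88, 4.16 and 4.22 with NaCl and 6.83, 7.06, 6.78, 6.83 and 6.70 without and fell by 2.49 (SE 0.20, adjusted p = 7.8e-07). The NaCl mean of 4.35 was low, and NaCl replicate 2 was above the other NaCl arrays, yet below all untreated arrays. IGF2, the insulin-like growth factor of the same locus, fell by 0.90 (SE 0.11), with 6.11 to 6.57 in the NaCl arrays and 7.03 to 7.32 in the untreated arrays.

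GPR34, a receptor for lysophosphatidylserine, had 4.34, 4.41, 3.78, 4.03 and 4.09 with NaCl and 6.81, 6.75, 6.25, 6.27 and 5.95 without and fell by 2.27 (SE 0.16, adjusted p = 3.0e-07). Another cluster of the gene holds identical values, and a further one, with a low mean of 1.83, differed by -0.005. Among the rest of the 15 largest decreases, TCIM, a regulator of transcription and inflammation, fell by 1.83 (SE 0.10). EGLN3, an oxygen-dependent prolyl hydroxylase that marks HIF for breakdown, fell by 1.74, and OLR1, the scavenger receptor of oxidized lipoprotein, by 1.74.

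APOD, a lipocalin that carries small lipids, fell by 1.74 with a large spread among the NaCl arrays (7.14, 7.90, 6.41, 6.62 and 6.66, against 8.52 to 8.86 in untreated GC, SE 0.26, adjusted p = 3.8e-04). EMB, the partner protein that brings monocarboxylate transporters to the membrane, fell by 1.72, and SLC16A6, itself a member of that transporter family, by 1.63. Among 12 measured family members, looked at after their values were seen, SLC16A6 alone passed both thresholds. SLC16A5 differed by 0.49, SLC16A3 by -0.32 and SLC16A10 by 0.23 (adjusted p = 2.0e-04, 0.027 and 0.029). Receptors followed. VIPR2, which binds the peptides VIP and PACAP and raises cAMP, fell by 1.54 (3.98 ± 0.41 against 5.52 ± 0.25), and PTGFR, the receptor of prostaglandin F2 alpha, by 1.47 (6.25 ± 0.20 against 7.73 ± 0.09). The remaining 4 of the 15 were PLBD1 (-1.68), MGC133636 (-1.55), PTX3 (-1.45) and LOC404105 (-1.43).

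Of 29 measured genes of osmotic adaptation, 1 rose, 1 fell and 27 did neither, with a median of -0.002 (unadjusted p, 9 higher and 3 lower, unmoderated, 1 and 1). The parentheses after a list give how many members were higher and lower at an unadjusted p under 0.05, and how many passed both thresholds in the unmoderated analysis of variance that the study's methods name. Of all 26773 clusters, 3262 (12.2%) were higher and 2962 (11.1%) lower at an unadjusted p under 0.05, and 86 and 195 passed in the unmoderated analysis. By limma, 0.403% of all clusters rose and 0.743% fell, the shares to set beside the calls in each list. Small p-values were more frequent at high signal. Of the 6694 clusters of lowest signal (up to 2.84), 105 had an adjusted p under 0.05. Of the 6693 of highest signal (from 6.77), 1608 did. The shares of 12.2% and 11.1% are thus likely a low yardstick for lists of bright genes. No list was compared with clusters of like signal. The gene of osmotic adaptation that rose was SLC6A6, the taurine transporter. It read 6.01, 6.18, 6.23, 6.16 and 6.31 with NaCl and 5.18, 5.12, 5.16, 5.24 and 5.48 without, a difference of 0.94 (SE 0.07, 1.92-fold, adjusted p = 2.4e-07). Each NaCl array was above each untreated array. Among 18 genes of its transporter family, looked at after their values were seen, SLC6A6 alone passed both thresholds. CLU, the extracellular chaperone clusterin, fell by 0.83 (SE 0.05, 9.88 ± 0.11 with NaCl and 10.70 ± 0.04 in untreated GC).

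The other classical targets of hypertonic stress in that list did not pass the fold threshold. The inositol transporter SLC5A3 read 9.88, 9.90, 9.90, 9.86 and 9.89 with NaCl and 9.73, 9.65, 9.66, 9.72 and 9.62 in untreated GC, which was without overlap but a difference of 0.21 only (SE 0.03, adjusted p = 4.7e-04). NFAT5 itself had a difference of 0.24 (SE 0.06, adjusted p = 0.019), and its highest untreated value of 7.35 exceeded the lowest NaCl value of 7.31. SLC38A2, which imports neutral amino acids, differed by 0.32 (adjusted p = 2.6e-06), the small heat shock protein gene CRYAB by 0.48 (adjusted p = 8.5e-06) and the chaperone gene HSPA4L by 0.24 (adjusted p = 0.0022). Aldose reductase (AKR1B1) differed by 0.01 (SE 0.04), and the betaine transporter SLC6A12 by -0.02 at signals of 3.89 with NaCl and 3.91 without, both of them low.

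Of 11 measured subunits of the sodium pump and its FXYD regulators 0 were called by limma (unadjusted p, 2 higher and 2 lower, unmoderated, 0 and 0), and ATP1B1 differed by 0.16 (SE 0.03), ATP1B3 by 0.17 and ATP1B2 by -0.45. Of 19 genes of sodium entry 0 were called by limma (unadjusted p, 0 higher and 2 lower, unmoderated, 0 and 0), and likewise 0 of 25 kinases, cotransporters and channels of volume control (unadjusted p, 7 higher and 3 lower, unmoderated, 0 and 0). In the last list, the mechanosensitive or osmosensitive channel genes TRPV4 (0.51, SE 0.07), LRRC8C (0.51, SE 0.06) and PIEZO1 (0.44, SE 0.04) had an adjusted p under 0.05 and no overlap between the groups, and LRRC8C and PIEZO1 passed limma's treat test against a 1.2-fold change (adjusted p = 0.027 and 0.012), whereas the cotransporter SLC12A2 differed by 0.03 and the kinases WNK1, OXSR1 and STK39 by 0.07, -0.03 and -0.07.

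**Figure D3:**
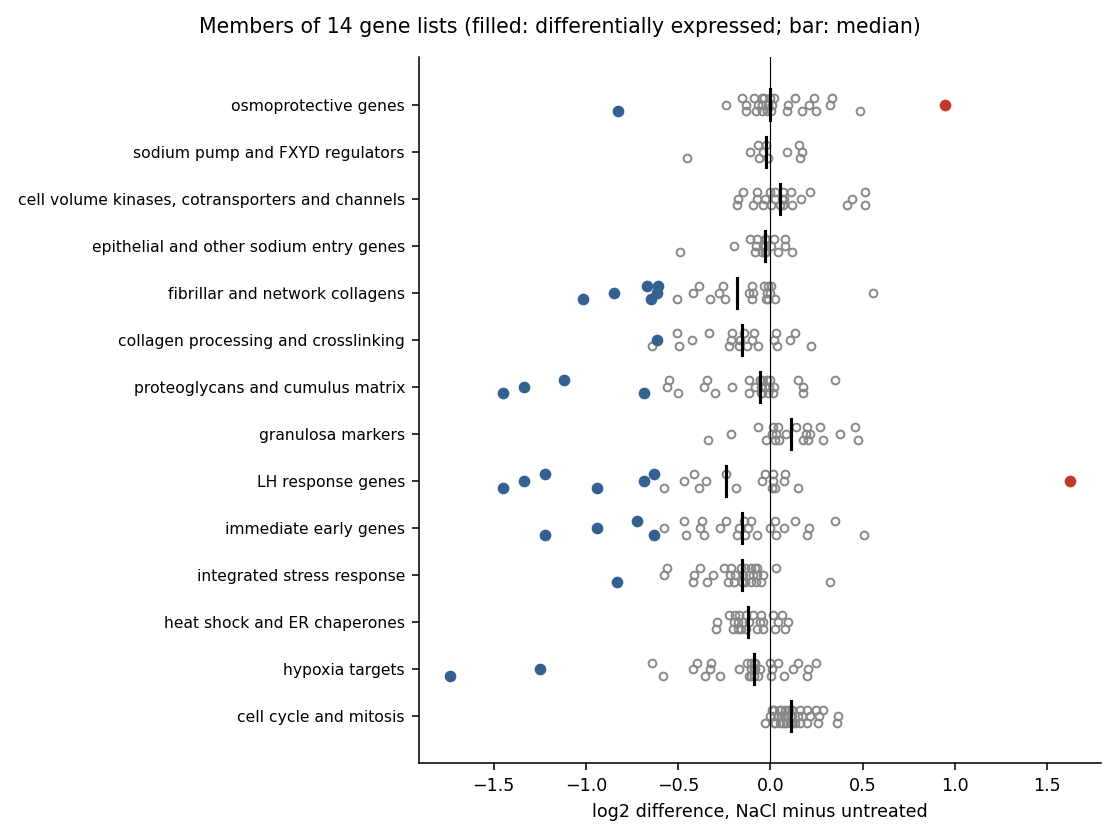
Log2 differences of NaCl minus untreated (horizontal axis) for the measured members of 14 gene lists; filled points are differentially expressed (red higher, blue lower), open points are not, and the bar is the list's median. In the osmoprotective, sodium and volume lists the filled points are SLC6A6 and CLU, and the open points lie between -0.49 and 0.51. The filled points of the collagen, cumulus matrix and immediate early lists lie to the left, as do 6 of the 7 in the LH response list, with NRG1 far to the right.

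Several genes of the extracellular matrix fell. Of 26 collagen genes, 6 fell and 0 rose by limma, where 0.743% of all clusters fell, with a median of -0.18 (unadjusted p, 1 higher and 13 lower, unmoderated, 0 and 6). COL1A2, a chain of collagen I, read 7.95, 7.77, 7.40, 7.60 and 7.65 with NaCl and 8.64, 8.83, 8.62, 8.74 and 8.62 in untreated GC and fell by 1.02 (SE 0.10, adjusted p = 4.9e-06). COL3A1 read 9.12, 9.07, 8.69, 8.89 and 8.73 against 9.54, 9.61, 9.54, 9.56 and 9.61 and fell by 0.67 (SE 0.07). In both genes all NaCl arrays were lower than all untreated arrays. The network and basement membrane collagens COL15A1, COL18A1, COL8A1 and COL6A1 fell by 0.85, 0.65, 0.61 and 0.61. COL1A1, the partner chain of COL1A2, differed by -0.51 (SE 0.12, adjusted p = 0.0085) and its groups overlapped. Without NaCl replicate 2, the highest of its group, COL1A1 passed both thresholds with -0.62. COL8A1, with low signals in both groups, lost the call without NaCl replicate 2 (-0.54) or untreated replicate 5 (-0.55). COL6A1 lost it without NaCl replicate 4 (-0.58) or 5 (-0.55). Under limma's treat against a 1.2-fold change, COL8A1 and COL6A1 were not called (adjusted p = 0.24 and 0.30). The exception in direction was COL11A1 with 0.56 (adjusted p = 6.4e-06), short of the fold threshold.

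Of 22 genes that process and crosslink collagen, 1 fell and 0 rose (unadjusted p, 2 higher and 15 lower, unmoderated, 0 and 1), namely PCOLCE2, an enhancer of procollagen cleavage, with 0.61 (SE 0.05). The list's median was -0.16, and 11 members were lower and 0 higher at an adjusted p under 0.05 without the fold threshold. The crosslinking oxidase LOX differed by -0.64 with a wide spread (SE 0.28, adjusted p = 0.18), and without NaCl replicate 2, at 4.91 in a group whose other arrays reached at most 3.53, by -0.93 (adjusted p = 0.0074). Of 38 laminins, fibronectin and other matrix proteins, FN1 (fibronectin) fell by 0.62 and SPP1 (osteopontin) by 0.60, while FBLN5, a protein of elastic fibres, rose by 0.85 (SE 0.04, 8.13 ± 0.04 with NaCl and 7.29 ± 0.05 without). In that list 1 gene rose and 2 fell (unadjusted p, 5 higher and 12 lower, unmoderated, 1 and 2). Of 26 proteases and their inhibitors, the receptor of urokinase, PLAUR, fell by 0.78, and ADAMTS5, which cleaves proteoglycans, rose by 0.70 (unadjusted p, 3 higher and 10 lower, unmoderated, 1 and 1). Among 25 integrin chains, looked at after their values were seen, the collagen-binding ITGA11 and ITGA2 fell by 1.09 and 0.64 and ITGB3 by 0.93, and ITGA5, which binds fibronectin, rose by 0.64. ITGA11 had low signals in both groups.

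Of 30 genes of proteoglycans and of the matrix that builds up around the cumulus, 4 fell and 0 rose by limma, where 0.743% of all clusters fell (median -0.05, unadjusted p, 3 higher and 12 lower, unmoderated, 0 and 4). PTX3, the pentraxin that ties hyaluronan strands together, read 5.46, 5.78, 5.26, 5.60 and 5.41 with NaCl and 7.09, 6.90, 6.96, 6.91 and 6.91 in untreated GC and fell by 1.45 (SE 0.10, 2.73-fold, adjusted p = 3.2e-07). HAS2, the synthase of hyaluronan, read 2.75, 3.53, 2.98, 3.15 and 2.82 against 4.31, 4.46, 4.37, 4.42 and 4.34 and fell by 1.34 (SE 0.14, adjusted p = 1.5e-05), with low signals in both groups. TNFAIP6, which transfers heavy chains to hyaluronan, fell by 0.68 (SE 0.04, 9.47 to 9.67 with NaCl and 10.18 to 10.26 without). CEMIP, named above for the breakdown of hyaluronan, rose. The fourth to fall was FMOD (fibromodulin), a small proteoglycan on collagen fibrils, with 1.12 (SE 0.08).

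**Figure D4:**
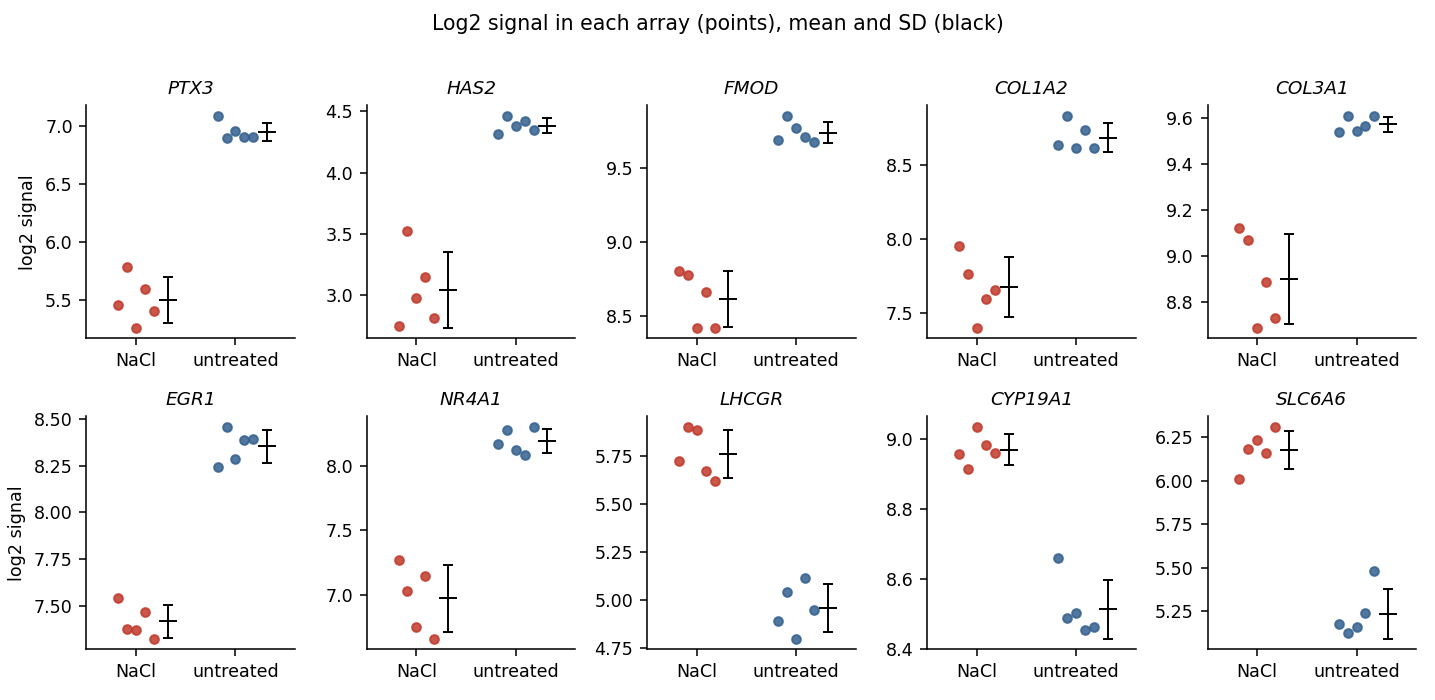
Log2 signals in the 5 NaCl arrays (red, left) and the 5 untreated arrays (blue, right) for genes of the matrix, of early transcription and of follicular function and for the taurine transporter SLC6A6, with mean and SD in black; vertical axes do not start at 0. The groups do not overlap in any of the 10 genes, and CYP19A1, at 8.97 with NaCl and 8.51 in untreated GC, is the only one short of the fold threshold.

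Of 22 granulosa markers 0 were differentially expressed by limma (unadjusted p, 12 higher and 2 lower, unmoderated, 0 and 0), and their median was 0.11. Without the fold threshold, 10 were higher and 2 lower. CYP19A1 read 8.96, 8.92, 9.04, 8.98 and 8.96 with NaCl and 8.66, 8.49, 8.50, 8.45 and 8.46 in untreated GC, a difference of 0.46 (SE 0.06, 1.37-fold, adjusted p = 1.4e-04), and AMH, the anti-Müllerian hormone, differed by 0.38 and the transcription factor gene RUNX1 by 0.48. ESR2, the estrogen receptor beta, was the lowest at -0.34. The steroid synthesis genes HSD3B1 and CYP11A1 differed by 0.10 and -0.04. Of 22 genes of that list, HSD11B1 alone fell, by 0.70 (SE 0.06, unadjusted p, 5 higher and 6 lower, unmoderated, 0 and 1). Its product turns cortisone into cortisol, and HSD11B2, which does the reverse, differed by -0.58, just short of the threshold.

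Among 17 gonadotropin and steroid receptors, LHCGR, the receptor for LH, was the only one to rise (unadjusted p, 6 higher and 1 lower, unmoderated, 1 and 0). It read 5.72, 5.90, 5.88, 5.67 and 5.62 with NaCl and 4.89, 5.04, 4.80, 5.12 and 4.95 without, a difference of 0.80 (SE 0.16, adjusted p = 0.0031) without overlap, and the untreated mean of 4.96 was low. FSHR, the receptor for FSH, differed by 0.21 (SE 0.05).

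Of 23 genes that are known to answer to LH, 6 fell and 1 rose, where 0.743% of all clusters fell and 0.403% rose. The list's median was -0.24 (unadjusted p, 1 higher and 12 lower, unmoderated, 1 and 6). The genes past both thresholds are named next. They include the matrix genes PTX3, HAS2 and TNFAIP6, which the list shares with the one above. The transcription factor genes NR4A1, EGR1 and NR4A3 fell too, and NRG1 rose. NR4A1 read 7.27, 7.03, 6.75, 7.15 and 6.66 with NaCl and 8.17, 8.28, 8.13, 8.09 and 8.30 in untreated GC and fell by 1.22 (SE 0.11, adjusted p = 2.7e-06). EGR1 read 7.54, 7.38, 7.37, 7.47 and 7.32 against 8.24, 8.46, 8.28, 8.39 and 8.39 and fell by 0.94 (SE 0.05, adjusted p = 4.2e-08). The lowest untreated array of either gene was above the highest NaCl array. NR4A3 fell by 0.63 at low signals in both groups, a call that was lost without NaCl replicate 3 or 5 or untreated replicate 3. NR4A2, the third of the family, differed by -0.47 (adjusted p = 9.6e-04). Among 28 immediate early genes, NR4A1, EGR1, NR4A3 and FOS fell, the last by 0.72 (SE 0.05). In that list 4 fell and 0 rose by limma, where 0.743% of all clusters fell (unadjusted p, 5 higher and 14 lower, unmoderated, 0 and 4). IER3 differed by 0.51 and DUSP6, which switches off ERK, by -0.58. VNN2 and CYP11A1, also of the LH list, differed by 0.08 and -0.04.

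Further genes of local signalling in the follicle, chosen after their values were seen, were lower. PTGIS, which makes prostacyclin, fell by 1.15 (SE 0.07). GUCY1B1, a subunit of the guanylyl cyclase that senses nitric oxide, fell by 1.16 (SE 0.07), while its partner GUCY1A1 differed by 0.04. PRKG2, a kinase driven by cGMP, fell by 0.97 at low signals in both groups. Of 15 connexins, the channel genes GJA4 and GJA5 fell by 1.10 and 1.05 (SE 0.09 and 0.09), whereas GJA1, the main connexin between GC, read 11.51 ± 0.01 with NaCl and 11.48 ± 0.03 in untreated GC.

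Of 32 ligands and antagonists of the TGF-beta superfamily, 4 fell and 0 rose by limma, where 0.743% of all clusters fell (unadjusted p, 5 higher and 11 lower, unmoderated, 0 and 3). They were BMP6 with 0.73 (SE 0.08), TGFB3 with 0.73 (SE 0.18, with overlapping groups and low signals in both), INHBE, an activin subunit, with 0.69, and LTBP1, which stores latent TGF-beta in the matrix, with 0.68. INHBA, the main activin subunit of GC, differed by 0.03, and BMP2 by 0.58 with an adjusted p of 2.9e-06. CCN2, a target of TGF-beta and of YAP, fell by 0.74 as 1 of 13 TGF-beta targets (unadjusted p, 4 higher and 6 lower, unmoderated, 0 and 1). ANKRD1, a YAP target as well, and TAGLN rose by 1.01 (SE 0.06) and 1.11 (SE 0.07), so that the 27 genes of the YAP, SRF and contractile list held 2 that rose and 1 that fell (unadjusted p, 16 higher and 4 lower, unmoderated, 2 and 1).

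In the IGF system, 4 of 20 genes fell and 0 rose by limma (unadjusted p, 5 higher and 8 lower, unmoderated, 0 and 4). These were H19, IGF2, the relaxin-like hormone gene INSL3 with 0.64 and the binding protein gene IGFBP6 with 0.59, where 0.743% of all clusters fell. The last 2 calls were not stable. IGFBP6 lost the call without NaCl replicate 1, 3, 4 or 5 or untreated replicate 1, 2 or 5. INSL3 lost it without NaCl replicate 5 and under limma's treat (adjusted p = 0.46). IGF1R, the receptor of the IGF-1 in the medium, differed by 0.15. Other imprinted genes, picked after their values were seen, did not move as one. MEST fell by 0.93 (SE 0.06) and PEG3 rose by 0.62 (SE 0.07). Of 43 genes of WNT and Notch signalling, the Notch ligand JAG1 fell by 1.32 (SE 0.07, 6.68 ± 0.18 with NaCl and 8.00 ± 0.05 without) and WNT5B by 0.98, and 0 rose (unadjusted p, 1 higher and 12 lower, unmoderated, 0 and 2). SPRY1 alone of 27 genes of FGF signalling passed both thresholds (unadjusted p, 5 higher and 5 lower, unmoderated, 1 and 0). NRG1 alone did so of 13 of the EGF family (unadjusted p, 2 higher and 4 lower, unmoderated, 1 and 0). Without the fold threshold, 4 FGF genes were higher and 3 lower, and 1 and 3 of the EGF family.

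Of 27 angiogenic factors, ANGPT1, the ligand that stabilizes vessels through TEK, rose by 0.99 (SE 0.08), and AGTR2, an angiotensin receptor, by 0.99 (SE 0.13), while VEGFA differed by -0.11 (unadjusted p, 3 higher and 7 lower, unmoderated, 2 and 0). ANGPT1 and AGTR2 had means of 4.07 and 4.42 with NaCl, which are low. Of 41 axon guidance genes 3 fell and 0 rose, where 0.743% of all clusters fell (unadjusted p, 10 higher and 10 lower, unmoderated, 0 and 3). NRP2, a receptor of semaphorins and VEGF, fell by 1.27 (SE 0.11), PLXND1 by 0.69 and SEMA5A by 0.63, the last with overlapping groups. In the list of 31 neuropeptides and granins, NTS rose, whereas SST (somatostatin) and the prohormone convertase PCSK1 fell by 1.00 (SE 0.10) and 0.88 (SE 0.07), with unadjusted p, 4 higher and 7 lower, unmoderated, 1 and 2 for the list. Of 33 chemokines, cytokines and acute phase genes, CXCL12 rose by 0.75 (SE 0.06, 7.58 ± 0.11 with NaCl and 6.83 ± 0.12 in untreated GC) and IL18 by 0.92 (SE 0.06), and 0 fell (unadjusted p, 8 higher and 5 lower, unmoderated, 2 and 0).

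Of 31 genes of the integrated stress response, 1 fell and 0 rose by limma (median -0.15, unadjusted p, 1 higher and 22 lower, unmoderated, 0 and 1). This was the lipoprotein receptor VLDLR with 0.83, and DDIT3, TRIB3, ATF4 and ASNS differed by -0.41, -0.34, -0.07 and -0.14. Of 26 heat shock and endoplasmic reticulum chaperones 0 were called by limma (unadjusted p, 2 higher and 14 lower, unmoderated, 0 and 0), with a median of -0.12 and HSPA5 at -0.19, HYOU1 at -0.30 and DNAJB9 at -0.29. Of 21 targets of p53, PMAIP1, a BH3-only inducer of apoptosis, and SESN1 fell by 0.71 and 0.64 and 0 rose, where 0.743% of all clusters fell (unadjusted p, 4 higher and 10 lower, unmoderated, 0 and 2). CDKN1A and MDM2 differed by -0.14 and -0.03. PMAIP1 was also the only one of 24 apoptosis genes past both thresholds (unadjusted p, 1 higher and 8 lower, unmoderated, 0 and 1). Its means of 2.61 with NaCl and 3.32 in untreated GC were both low.

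The cell cycle list held 38 genes, of which 0 were called by limma (unadjusted p, 11 higher and 0 lower, unmoderated, 0 and 0), with a median of 0.11 and members between -0.03 and 0.37. The groups overlapped for MKI67 (0.26, SE 0.11, adjusted p = 0.18). Redox genes were not called either (0 of 32 by limma, unadjusted p, 8 higher and 7 lower, unmoderated, 0 and 0), with GCLC, the rate-limiting enzyme of glutathione synthesis, at 0.36 (adjusted p = 1.5e-06), and TXNIP, which reacts to glucose metabolites, at 0.003.

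Of 5 metallothioneins, small proteins that bind zinc and copper, 3 fell, a family picked after its values were seen. MT2A read 8.02, 8.07, 8.00, 8.01 and 7.85 with NaCl and 9.31, 9.22, 9.27, 9.22 and 9.15 in untreated GC and fell by 1.24 (SE 0.06, adjusted p = 1.4e-08). MT1A and LOC613358 (RefSeq synonym MT1E) fell by 0.97 and 0.73, and MT3 and MT4 had low signals. In these 3 genes all NaCl arrays were below all untreated arrays. The zinc transporter genes SLC30A2 and SLC30A1 were looked at afterwards, of which SLC30A2 fell by 0.62 and SLC30A1 differed by -0.22 (adjusted p = 0.028). MTF1, the zinc-sensing factor that drives metallothioneins, differed by -0.01.

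Among 10 oxygen sensors and HIF subunits, EGLN3 was the only one past both thresholds (unadjusted p, 1 higher and 1 lower, unmoderated, 0 and 1), with 4.93, 5.08, 4.48, 4.26 and 4.32 in NaCl and 6.51, 6.38, 6.33, 6.21 and 6.33 in untreated GC. NDUFA4L2, a mitochondrial protein induced by HIF, fell by 1.25 (SE 0.15), so that 2 of 33 hypoxia targets fell and 0 rose (median -0.09, unadjusted p, 3 higher and 14 lower, unmoderated, 0 and 2). VEGFA and CA9 differed by -0.11 and -0.08. Of 23 glycolysis genes 0 were called by limma (unadjusted p, 2 higher and 8 lower, unmoderated, 0 and 0), with the hexokinase HK2 at -0.28 and PFKP at -0.31. CA2, the cytosolic carbonic anhydrase, fell by 1.42 (SE 0.14), chosen after its value was seen, while the mitochondrial CA5B rose. In lipid handling, 4 of 30 genes fell and 0 rose, where 0.743% of all clusters fell (unadjusted p, 8 higher and 11 lower, unmoderated, 0 and 4). All 4 are for uptake or transport, namely OLR1, VLDLR, the fatty acid-binding FABP5 with 0.69 and CD36 with 0.60. Of 18 genes of cholesterol synthesis 0 were called by limma (unadjusted p, 8 higher and 3 lower, unmoderated, 0 and 0), and likewise 0 of 25 respiratory chain genes (unadjusted p, 4 higher and 2 lower, unmoderated, 0 and 0).

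Among the remaining genes that passed both thresholds, some share a known role, a grouping made after their values were seen. ALPL (tissue-nonspecific alkaline phosphatase), ENPP1, which makes pyrophosphate, and the bone sialoprotein gene IBSP, all known from mineralizing tissue, fell by 1.23 (SE 0.10), 1.21 (SE 0.06) and 1.11 (SE 0.08). SNAI2, a transcription factor of epithelial to mesenchymal transition, fell by 0.91 (SE 0.06). The calcineurin inhibitor gene RCAN1 fell by 0.75 (SE 0.05), whereas its paralog RCAN2 rose by 0.59 (SE 0.06). PLK2, a kinase induced by growth factors and stress, fell by 1.08, and NPTX2, a neuronal pentraxin, by 1.35. Among genes that act on the matrix or at cell contacts, the collagen galactosyltransferase COLGALT2, the peroxidase PXDN that crosslinks collagen IV, the protease ADAM12 and the adhesion genes JAM2 and CDH13 fell by 0.93, 0.79, 0.90, 0.84 and 0.60. The protease inhibitor gene TFPI2 fell by 1.22 with overlapping groups (SE 0.27). Of genes that rose, PIK3R3, a regulatory subunit of PI3 kinase, differed by 1.00 (SE 0.09) and the efflux transporter ABCG2 by 0.67 (SE 0.07). The citrate transporter SLC13A5 fell by 0.78 at low signals in both groups. Counted by 1 cluster per gene, the brightest, 69 genes rose and 174 fell. Of these, 31 and 92 are named in the text. The 38 unnamed genes that rose differed by 0.59 to 0.96, and the 82 that fell by -1.35 to -0.59.

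Markers of other cells were set beside these changes. Of 13 stromal and theca markers 2 fell (unadjusted p, 1 higher and 5 lower, unmoderated, 0 and 2), COL15A1 and INSL3, whereas DCN, LUM, PDGFRA and CYP17A1 differed by -0.35, -0.12, 0.28 and -0.14. The mean log2 signal over the list was 6.08 to 6.46 in the NaCl arrays and 6.27 to 6.45 in the untreated arrays. Of 14 leukocyte markers only GPR34 fell (unadjusted p, 0 higher and 4 lower, unmoderated, 0 and 1), and PTPRC, CD68 and TYROBP differed by -0.16, -0.36 and -0.16 at means of 2.67 to 5.28. The list's mean was 3.71 to 3.81 in the NaCl arrays and 3.95 to 4.11 in the untreated arrays. For the 13 markers without GPR34 it was 3.68 to 3.79 in the NaCl arrays and 3.79 to 3.95 in the untreated arrays. Of 14 epithelial markers 2 fell (unadjusted p, 2 higher and 4 lower, unmoderated, 0 and 2). KRT8 fell by 0.90 (SE 0.08) and KRT18, its partner keratin, by 0.66, with list means of 5.07 to 5.21 in the NaCl arrays and 5.23 to 5.35 in the untreated arrays. The part of such cells in the matrix genes, and of the leukocyte list in GPR34, was not tested. Of 10 endothelial and 12 oocyte markers 0 were called by limma (unadjusted p, 1 higher and 3 lower, unmoderated, 0 and 0 for endothelium, unadjusted p, 0 higher and 2 lower, unmoderated, 0 and 0 for oocyte). The class II gene BOLA-DQB1 fell by 1.35 (SE 0.08), outside the lists and picked after its value was seen.

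The salt response was then set beside the L-lactate arrays, which carry the same amount of sodium. Both groups were compared with the same untreated arrays, so values stand side by side, and the difference between NaCl and L-lactate is given with its 95% interval from limma. The genes were picked after their values were seen, so the differences are a description. Several of the strongest salt responses had nearly the same level with L-lactate. NTS read 7.07 ± 0.28 with NaCl, 7.03 ± 0.13 with L-lactate and 4.67 ± 0.27 untreated, and NaCl minus L-lactate was 0.04 (95% interval -0.26 to 0.34). For PAG11 the means were 7.76, 7.94 and 5.01 and the interval -0.65 to 0.28, for ADCY2 5.71, 5.68 and 4.37 (-0.17 to 0.22), and for NRG1 5.82, 5.95 and 4.19 (-0.35 to 0.09).

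The same was seen among genes that fell. FMOD read 8.62 ± 0.19 with NaCl, 8.61 ± 0.08 with L-lactate and 9.74 ± 0.07 untreated (NaCl minus L-lactate -0.15 to 0.17), and FN1, LTBP1 and COL18A1 had intervals of -0.11 to 0.13, -0.11 to 0.07 and -0.09 to 0.15. For EMB, SLC16A6, VIPR2, JAG1 and GUCY1B1 the intervals were -0.10 to 0.42, -0.10 to 0.31, -0.13 to 0.58, -0.28 to 0.01 and -0.22 to 0.08. An interval that includes 0 does not show that both additions act alike, but in each of these genes both bounds were nearer to 0 than the difference of NaCl from untreated GC. For SLC6A6, on the other hand, L-lactate read 6.78 ± 0.04, against 6.18 ± 0.11 with NaCl and 5.24 ± 0.14 untreated (NaCl minus L-lactate -0.60, interval -0.74 to -0.46), so that the taurine transporter was highest with L-lactate. CXCL12, IL18 and TBX18 had the same order of means.

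Other genes that were lower with NaCl than in untreated GC were higher with L-lactate than in untreated GC. H19 read 4.35 ± 0.51 with NaCl, 7.79 ± 0.27 with L-lactate and 6.84 ± 0.13 untreated. PTX3 read 5.50, 7.81 and 6.95 and HAS2 3.05, 5.80 and 4.38, in the same order of groups. For NDUFA4L2 the means were 6.76, 9.02 and 8.01, for KRT8 7.11, 8.85 and 8.01, and for TNFAIP6 9.55, 10.77 and 10.24. NaCl minus L-lactate was -3.44 in H19 (-3.86 to -3.02), in HAS2 -2.75 (-3.06 to -2.45) and in PTX3 -2.30 (-2.53 to -2.08). AHSG (fetuin-A) and LTC4S (leukotriene C4 synthase), fell by 0.69 and 0.74 with NaCl and read 4.24 and 5.19 with NaCl, 7.28 and 7.37 with L-lactate and 4.93 and 5.93 untreated.

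Other genes had nearly the untreated level with L-lactate. NR4A1 read 6.97 ± 0.26 with NaCl, 8.20 ± 0.17 with L-lactate and 8.19 ± 0.09 untreated, and LHCGR 5.76 ± 0.13, 4.96 ± 0.44 and 4.96 ± 0.12. NaCl minus L-lactate was -1.23 (-1.46 to -0.99) for NR4A1 and 0.80 (0.46 to 1.14) for LHCGR. PTGIS and ALPL had intervals of -1.39 to -1.10 and -1.31 to -0.90. For CYP19A1 the order of the means was 8.97 with NaCl, 7.75 with L-lactate and 8.51 untreated, so that untreated GC stood between the other groups.

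**Figure D5:**
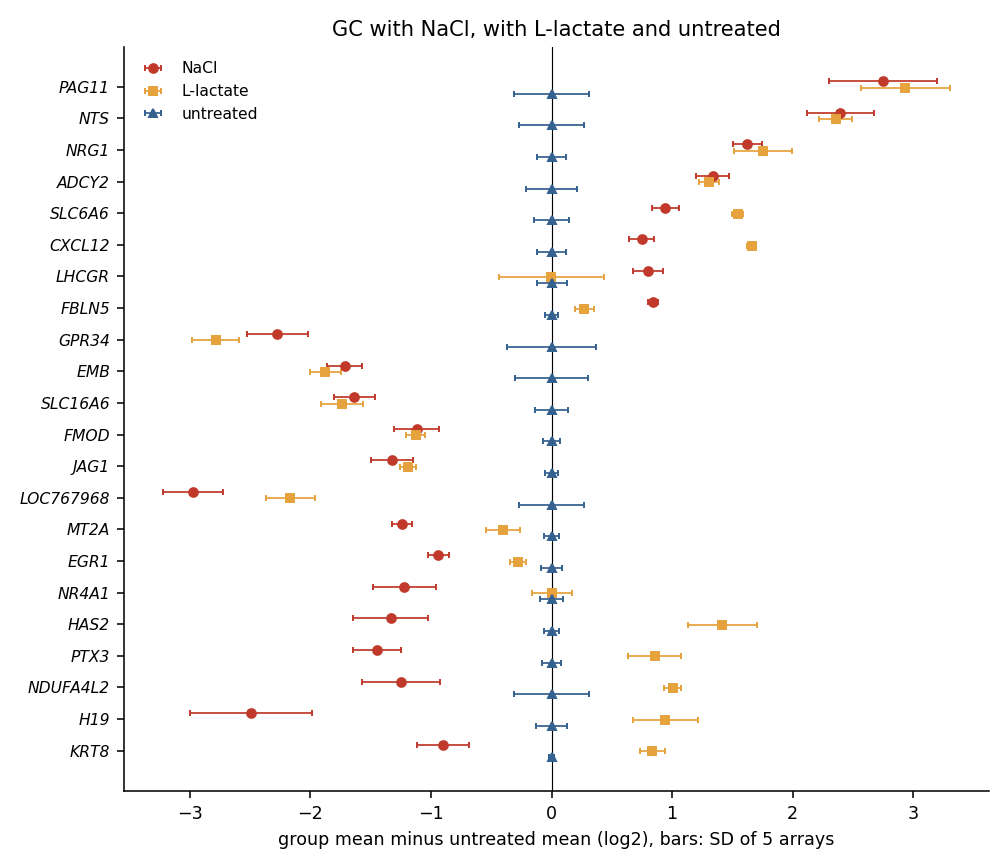
Group means of the log2 signal with NaCl (red circles), with L-lactate (orange squares) and untreated (blue triangles) as differences from the untreated mean of each gene (horizontal axis), with bars for the SD of 5 arrays. From PAG11 to ADCY2 the NaCl and L-lactate means nearly coincide, and from HAS2 to KRT8 they lie on opposite sides of the untreated mean.

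Of the other lists, 0 of 11 targets of MondoA and ChREBP were called by limma (unadjusted p, 1 higher and 4 lower, unmoderated, 0 and 0) and 0 of 21 genes induced by interferon (unadjusted p, 3 higher and 4 lower, unmoderated, 0 and 0). Of 21 genes of antigen presentation and complement CLU fell (unadjusted p, 3 higher and 5 lower, unmoderated, 0 and 1), of 14 BEX and TCEAL genes LOC767968 fell (unadjusted p, 1 higher and 2 lower, unmoderated, 0 and 1), and of the 35 genes of other organs AKAP4, known from sperm, rose by 0.60 at low signals (unadjusted p, 1 higher and 4 lower, unmoderated, 1 and 0).

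Genes that lie next to each other passed both thresholds in 8 pairs, in 7 of them in the same direction, according to the gene order of the RefSeq annotation. Besides H19 with IGF2 and KRT8 with KRT18, these were MT2A with LOC613358, the TNF ligand genes TNFSF18 and TNFSF4 (-0.73 and -0.61), CLU with SCARA3 (-0.88), CCN2 with ENPP1 (-1.21) and LOC767968 with SRPX2 (-0.65). In the eighth pair COL3A1 fell and GULP1, an adaptor for engulfment, rose by 0.76. The order held only protein-coding and long non-coding genes, without LOC genes that lack a cluster, so other genes can lie between a pair. Since 174 genes fell and 69 rose, pairs of one direction also arise without a link. How many pairs gene position alone would give was not tested. Of the clusters that were higher with NaCl, 35 (32.4%) have no gene symbol, and of the lower ones 22 (11.1%), where the share over all clusters was 28.5%. A block of 1776 clusters that precedes the first annotated cluster held 29 of the higher and 1 of the lower clusters. Its median signal was 2.31 on the log2 scale, against 4.54 over all clusters, and 64.8% of its clusters had a positive difference, which was the case for 50.5% of all clusters. Without this block, 79 clusters were higher and 198 lower.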

How the data were processed

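Bovine Gene 1.0 ST arrays of 5 NaCl, 5 L-lactate and 5 untreated GC cultures were used, all of one medium and day. The labels do not say whether replicates of a group came from separate cell pools, so p-values measure the spread between these cultures, which may be technical. The labels and the methods name different RNA kits. Per the submitters' processing notes, the authors made the deposited log2 values with Affymetrix Expression Console (version 1.4.1.46) by RMA, which corrects background, quantile normalizes and summarizes probes, so that values are relative within the series and small folds of dim clusters are compressed. The array's build was not given in the sources used here, and no coordinates are printed.

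All 26773 clusters of all 15 arrays were fitted without a filter in limma 3.58.1 (R 4.3.3) with 1 mean per group, so that the 3 groups share the estimate of the spread, and SEs are the moderated ones. The contrast NaCl minus untreated was adjusted by Benjamini-Hochberg over all clusters. The methods' unmoderated analysis of variance was an alternative and did not decide the calls. The script was tested on simulated data. The number of arrays limits the precision. Symbols came from the platform annotation (18457 clusters with 1 symbol, 688 with several, 7628 with none), and RefSeq (ARS-UCD2.0) gave synonyms and neighbours for 17996 of 18166 gene IDs.

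Named were the 15 largest increases and decreases among called clusters that carry 1 symbol and whose groups do not overlap, the called and key members of 47 gene lists, and up to 3 members with the largest difference of a list without calls. The members and lists were chosen with earlier results of these data known. Genes outside this rule were chosen after their values were seen, as were BMP2, COL1A1, COL11A1, CRYAB, DUSP6, ESR2, HSD11B2, IER3, LOC768028, LOX, NR4A2 and RUNX1 within their lists. Replicate numbers were checked for pairing and did not pair the samples. A planned search of promoters for motifs was not run, since no promoter sequence was used here.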

Additional observations from a re-analysis of the deposited data

Results flagged for a closer look

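Among the named genes, 20 of 390 groups of 5 arrays (5.13%) had 1 array far from the other 4 by Dixon's gap test, and chance alone gives about 1 in 20 groups. NaCl replicate 2 was such a high array in 7 of them, with 5.21 for H19, 4.94 for AGTR2, 9.23 for DCN, 12.01 for HSD3B1, 5.53 for IGFBP6, 4.91 for LOX and 2.90 for PTPRC. For H19 the nearest NaCl array read 4.26 and for LOX 3.53. NaCl replicate 5 was low for FSHR (9.13) and NRP2 (4.07), NaCl replicate 1 for GUCY1A1 (6.14) and SLC30A1 (6.99) and NaCl replicate 4 for TAGLN (7.01), and NaCl replicate 3 was high for FBLN5 (8.21). Among the untreated arrays, replicate 1 was high for CYP19A1 (8.66) and SRPX2 (6.47) and replicate 5 for IER3 (8.23), while replicate 3 was low for IL18 (7.57), replicate 4 for RCAN2 (5.20) and SST (6.72), and replicate 5 for LOX (4.04). In H19, CYP19A1, TAGLN, FBLN5, IL18, NRP2, SST, SRPX2, RCAN2, AGTR2 and IGFBP6 the NaCl arrays still did not overlap with the untreated arrays.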

How the results depend on the processing

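In place of 307 clusters, 1458 (662 higher, 796 lower) passed with a fold threshold of 1.2 and 70 (18 higher, 52 lower) with 2. The higher count was 69 with clusters below the median signal left out and 71 with only clusters of 1 symbol. Leaving out 1 array in turn gave 287 to 323 clusters, 86 to 119 higher and 191 to 213 lower, and a difference of 28.4 to 29.7 on the first principal component. Chosen after seeing the data, leaving out the unannotated block gave 277 clusters, 79 higher and 198 lower. The other alternatives stayed within 1.5 times the count, among them the 10 arrays alone (300), the unmoderated analysis of variance (281), limma's treat against a 1.2-fold change without a further fold threshold (361) and arrays centred on their medians (308, 118 higher and 190 lower). With the replicate number as a block, 302 clusters passed, 300 of them the same. The deviations of same-numbered arrays correlated by -0.0653 to 0.0372 over 5 pairs, and 4 of 10 arrays matched best with their own number, so the numbers were not taken as pairs.

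Of 123 named genes that rose or fell, 106 kept the call under every alternative other than the fold thresholds, and 0 changed direction. Leaving out 1 array took the call from 11, whose differences over all 10 arrays were all below 0.64 in size. They were AKAP4 (0.52 to 0.58 without NaCl replicate 5 or untreated replicates 4 or 5), CD36 (-0.58 without NaCl replicate 4 or untreated replicate 2), CDH13 (-0.58 without NaCl replicate 3 or untreated replicate 1), COL6A1 (-0.58 to -0.55 without NaCl replicates 4 or 5) and COL8A1 (-0.55 to -0.54 without NaCl replicate 2 or untreated replicate 5). The others were IGFBP6 (-0.58 to -0.56 without any of 7 arrays), INSL3 and TNFSF4 (-0.57 and -0.58 without NaCl replicate 5), NR4A3 (-0.58 to -0.52 without NaCl replicates 3 or 5 or untreated replicate 3), RCAN2 (0.55 to 0.57 without NaCl replicates 3 or 5 or untreated replicate 4) and SEMA5A (-0.58 to -0.55 without NaCl replicates 3 or 5). Conversely, BMP2, DUSP6 and HSD11B2, just short of the fold threshold, passed without some arrays (0.59 to 0.62, -0.60 to -0.59 and -0.62 to -0.58). TGFB3 lost the call in the unmoderated analysis (adjusted p = 0.077) and SPP1 with quantile normalization repeated (-0.58). Under limma's treat, 10 genes lost the call, LHCGR, TFPI2, KRT18 and TGFB3 (adjusted p = 0.13, 0.1, 0.13 and 0.53) with AKAP4, COL6A1, COL8A1, INSL3, NR4A3 and SEMA5A, and 9 gained it, CRYAB, LRRC8C and PIEZO1 (0.02, 0.027 and 0.012) with BMP2, COL11A1, DUSP6, HSD11B2, IER3 and RUNX1 (0.0016 to 0.0066). Low signals limit the size of the difference in the 41 named genes with a low group.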
